A study of Mus musculus with 12 samples.

Results

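The genes of the vascular endothelial growth factor (VEGF) receptors, of 2 of their ligands, of the TIE receptors and of a pair of endothelial adhesion proteins were followed through embryoid body formation and a short retinoic acid treatment. The 9 genes, Kdr, Flt1, Flt4, Vegfb, Vegfc, Tek, Tie1, Cdh5 and Pecam1, were taken by name from these families, and all 9 were among the 19938 genes measured. Each had exactly 1 probe set with a single gene symbol, so no choice between probe sets was needed. The samples came from a clone of D3, a mouse embryonic stem (ES) cell line, on 12 expression arrays in 4 groups of 3. The groups were ES cells kept undifferentiated (day 0), untreated embryoid bodies (EBs) after 4 days, EBs given DMSO for 12 h, and EBs given all-trans retinoic acid (ATRA) for 12 h at 5 micromolar. EBs are cell aggregates, formed here without LIF, the factor that keeps ES cells undifferentiated. DMSO is the usual solvent of ATRA, so the DMSO group served as the control of the ATRA group. Whether the 12 h of treatment fell inside the 4 days or came after them is not stated in the labels. All samples derive from the same clone, and the replicates are called biological with no further account of the cultures.

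VEGF ligands bind receptor tyrosine kinases on the endothelial surface and drive the formation and growth of blood and lymph vessels. KDR carries most of the VEGF-A signal. FLT1 binds VEGF-A tightly with weak kinase activity and limits the ligand that reaches KDR, while FLT4 serves VEGF-C and VEGF-D in lymphatic vessels. The TIE receptors and the adhesion proteins VE-cadherin (Cdh5) and PECAM1 hold the mature endothelium together. In the mouse embryo, Kdr marks the mesoderm from which blood and vessels arise, and PECAM1 is also a surface protein of undifferentiated ES cells.

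Promoter windows, the 250 bases before the start of the gene, were found in the RefSeq promoter table (build GRCm38.p6) for 7 of the 9 genes, all but Pecam1 and Cdh5. The windows of the 3 VEGF receptors are shown because these related genes went different ways in the data, and that of Tie1 because it held the most matches to the ETS core. ETS factors are the main transcription factors of endothelial promoters. Each sequence is written 5′ to 3′ on the strand of its gene, and capitals mark the ETS core GGAA on either strand, which reads TTCC when it lies on the other one. Flt1 lies at chr5:147726012-147726261 (minus strand), Kdr at chr5:75978456-75978705 (minus), Flt4 at chr11:49609429-49609678 (plus) and Tie1 at chr4:118489850-118490099 (minus).
Flt1: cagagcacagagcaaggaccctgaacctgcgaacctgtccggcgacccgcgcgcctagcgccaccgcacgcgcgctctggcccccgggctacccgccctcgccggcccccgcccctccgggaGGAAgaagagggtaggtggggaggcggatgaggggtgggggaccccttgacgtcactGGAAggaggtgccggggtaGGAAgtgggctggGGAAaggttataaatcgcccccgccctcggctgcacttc
Kdr: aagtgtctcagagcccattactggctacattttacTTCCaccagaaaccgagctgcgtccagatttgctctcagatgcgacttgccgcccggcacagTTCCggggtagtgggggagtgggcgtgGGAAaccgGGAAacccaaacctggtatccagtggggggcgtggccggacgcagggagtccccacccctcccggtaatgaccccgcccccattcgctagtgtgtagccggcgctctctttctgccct
Flt4: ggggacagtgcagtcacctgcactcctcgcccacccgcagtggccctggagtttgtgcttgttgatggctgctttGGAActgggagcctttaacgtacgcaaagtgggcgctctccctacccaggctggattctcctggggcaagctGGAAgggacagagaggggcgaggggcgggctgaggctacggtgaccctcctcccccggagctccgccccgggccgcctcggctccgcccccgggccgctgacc
Tie1: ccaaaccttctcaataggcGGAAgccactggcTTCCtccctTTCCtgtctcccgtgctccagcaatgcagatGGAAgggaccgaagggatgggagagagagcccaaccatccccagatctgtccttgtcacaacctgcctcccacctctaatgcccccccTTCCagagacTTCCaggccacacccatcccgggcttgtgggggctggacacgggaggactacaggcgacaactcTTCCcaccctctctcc

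Tie1 held 7 ETS cores, and 3.8% of all 32851 windows of this length held at least as many. It was picked as the highest of the 7 windows, so this share is a description and no test. Flt1 and Kdr held 4 each, a number reached by 33.4% of windows, and Flt4 held 2, reached by 76.8%. Tek also held 2, and Vegfb and Vegfc held 1 each, where the median over all windows was 3. At least 1 ETS core was present in 93.4% of windows, so its presence alone sets no gene apart. The GC box GGGCGG occurred 4 times in Vegfb (4.1% of windows held at least as many) and 3 times each in Flt1 and Flt4 (8.5%). It occurred 2 times each in Kdr and Vegfc (16.7%) and not in Tie1 or Tek, whereas 32.7% of windows held at least 1. GC content was 76.4% in Vegfb, 71.6% in Vegfc, 70.4% in Flt1, 68.4% in Flt4 and 61.6% in Kdr. It was 60.4% in Tie1 and 51.2% in Tek, where the median over all windows was 52.4%. Flt1 alone of the 7 genes had the TATA box letters TATAAA, which began 31 bases before the start and occurred in 12.4% of windows. The letters ACGTG, 1 form of the hypoxia response core, were present in 16.6% of windows and in none of the 7. The form GCGTG was not searched. The nuclear receptor half-site AGGTCA was found only in Vegfb, with 2 matches (1.4% of windows held at least 2). Both strands were searched for every motif, and no match overlapped another in any of the 7 windows. A match is a run of letters and was not tested as a binding site.

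Array medians lay between 7.76 and 7.86 on the log2 scale, and replicates correlated at 0.992 to 0.997. As a check of the treatment, the retinoic acid target gene Cyp26a1 stood at 11.58 ± 0.12 (SD, n = 3) with ATRA and 9.82 ± 0.14 (SD, n = 3) with DMSO. Among 8 pluripotency markers, the mean log2 value per array ran from 12.64 to 12.69 in ES cells and from 12.65 to 12.70 in day 4 EBs, and the ranges overlapped. Single markers moved in both directions, with 2 of the 8 higher and 1 lower in EBs at an adjusted p under 0.05 in limma. Utf1 rose by 0.40 (SE 0.07) and Sox2 by 0.32 (SE 0.06), while Klf4 fell by 0.52 on the log2 scale (SE 0.05). Levels are log2 values. Differences are on the same scale, each with its SE from a joint limma model of the 12 arrays, with n = 3 in every group, and a gene is called when its Benjamini-Hochberg adjusted p over all genes is under 0.05. In these bulk samples, fewer cells of a type and less RNA per cell cannot be told apart. Signals of different probe sets are not on one scale, so levels are compared only within a gene.

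Of the VEGF receptors, Flt1 made the largest move of the 9 genes. It read 7.77, 7.93 and 7.72 in the 3 ES samples, 9.005, 9.09 and 9.02 in day 4 EBs, 9.26, 9.06 and 9.19 with DMSO, and 8.97, 8.86 and 8.92 with ATRA. All 9 EB arrays stood above all ES arrays, and the ATRA arrays lay just below both other EB groups without overlap. Flt1 rose by 1.23 ± 0.07 from ES cells to day 4 EBs, or 2.35-fold (limma, adjusted p = 2.81e-08). DMSO-treated and untreated EBs overlapped, with a difference of 0.13 ± 0.07 (95% interval -0.012 to 0.28, adjusted p = 0.347). With ATRA, Flt1 fell by 0.25 on the log2 scale against DMSO (SE 0.07, adjusted p = 0.0246), which left it 1.11 ± 0.07 above ES cells. The call against DMSO ended without DMSO 1 (adjusted p = 0.105), DMSO 3 (0.0805), ATRA 2 (0.103) or ATRA 3 (0.071), with adjusted p from 0.00669 to 0.105 over all alternatives and a difference that stayed between -0.31 and -0.21. Against untreated EBs, the ATRA group differed by -0.12 ± 0.07 and was not called (adjusted p = 0.264). Flt1 also encodes a soluble receptor, and the single probe set does not tell the forms apart.

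Kdr, the gene of the main signalling receptor, stayed within a narrow band. Its values were 6.85, 7.01 and 6.94 in ES cells, 7.07, 7.19 and 6.93 in day 4 EBs, 6.9996, 7.13 and 7.08 with DMSO, and 6.90, 7.03 and 7.11 with ATRA. Every group overlapped every other. The difference of EBs from ES cells was 0.13 ± 0.08 (95% interval -0.033 to 0.295, adjusted p = 0.215), and that of ATRA from DMSO was -0.06 ± 0.08 (interval -0.22 to 0.11, adjusted p = 0.68). All 12 Kdr values lay below the array medians, and the deposited values do not say whether this probe set was above background. The same limit holds for all 12 values of Tek and for the untreated and DMSO-treated EB values of Flt4 and Tie1, which also lay below their array medians. It holds too for Flt1 in ES 1 and ES 3, Flt4 in ATRA 1 and ATRA 3, and Tie1 in ES 2. The ES level from which Flt1 rose thus shares this limit.

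Flt4, the lymphatic receptor gene, went the other way from Flt1 at the first step. It read 8.06, 7.97 and 7.95 in ES cells, 7.63, 7.63 and 7.61 in day 4 EBs, 7.64, 7.66 and 7.60 with DMSO, and 7.78, 7.79 and 7.75 with ATRA. The ES arrays were highest, the 6 arrays without ATRA were lowest and close together, and the ATRA arrays lay between them with no overlap. Flt4 fell by 0.37 on the log2 scale in day 4 EBs (SE 0.04, adjusted p = 2.74e-05). The ATRA group stood 0.14 ± 0.04 above DMSO, just short of the threshold (adjusted p = 0.0554), and was called without ES 1 (0.0289), with array weights (0.0159) and with the 2 groups fitted alone (0.0432), with adjusted p from 0.0159 to 0.168 over all alternatives. Against untreated EBs it was 0.15 ± 0.04 higher and called (adjusted p = 0.033). That call ended when any EB or ATRA array was left out (adjusted p = 0.0671, 0.0575 and 0.0976 without EB 1, EB 2 and EB 3, and 0.0993, 0.11 and 0.0683 without ATRA 1, ATRA 2 and ATRA 3). It also ended under median centring (0.0752) and an intensity trend (0.11), and over all alternatives the adjusted p ran from 0.0142 to 0.11. Against ES cells the ATRA group remained 0.22 lower on the log2 scale (adjusted p = 0.00156).

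**Figure D1:**
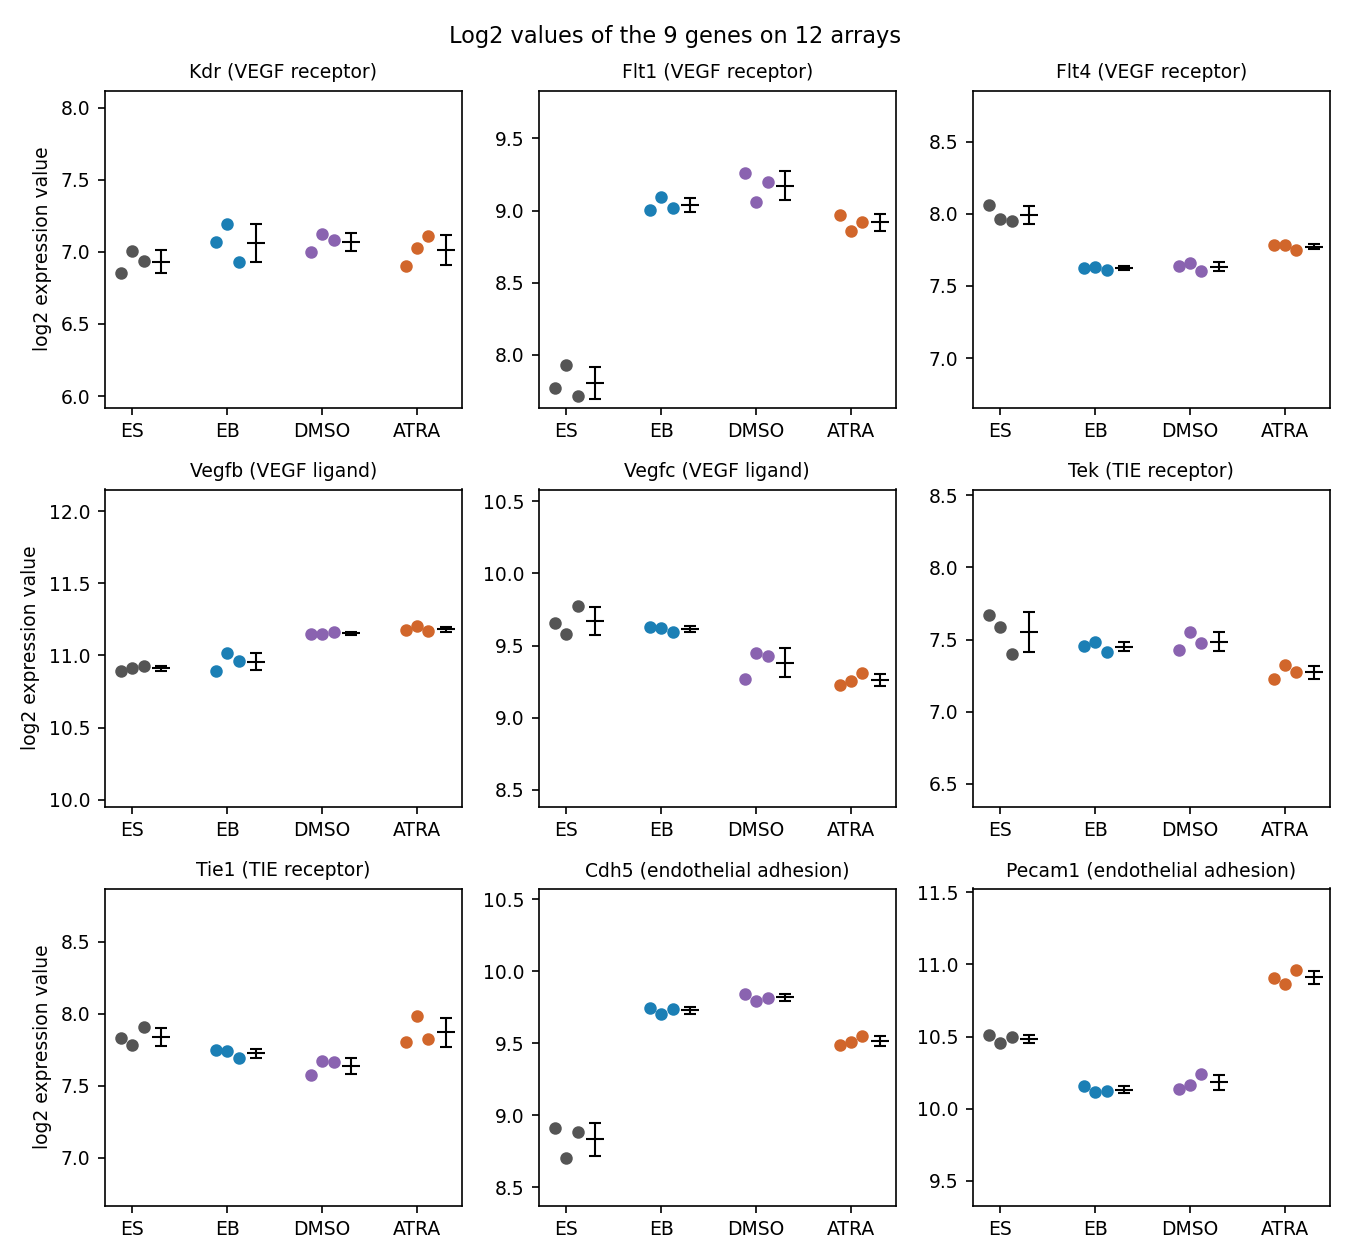
Log2 expression values of the 9 genes (vertical axis, each panel spanning the same 2.2 log2 units) on the 3 arrays of each group (points), with the group mean ± SD beside them. Flt1 and Cdh5 were lowest in ES cells, Pecam1 was highest with ATRA, and the Kdr groups overlapped.

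Of the ligands, Vegfb encodes a ligand of FLT1, and its values were tight within groups. They were 10.89, 10.92 and 10.93 in ES cells, 10.90, 11.02 and 10.96 in day 4 EBs, 11.15, 11.15 and 11.17 with DMSO, and 11.18, 11.20 and 11.17 with ATRA. Both treated groups stood above all untreated arrays. Day 4 EBs were not called against ES cells (0.05 ± 0.04, 95% interval -0.048 to 0.14, adjusted p = 0.482), and neither was ATRA against DMSO (0.03 ± 0.04, interval -0.064 to 0.12, adjusted p = 0.715). DMSO against untreated EBs gave 0.20 ± 0.04 without overlap and an adjusted p of 0.0614, above the threshold. The same difference had an adjusted p of 0.0111 among genes above the median level, 0.00941 with an intensity trend and 0.0467 with array weights, in a range of 0.00941 to 0.206. ATRA-treated EBs were 0.22 ± 0.04 above untreated EBs (adjusted p = 0.00287) and 0.27 ± 0.04 above ES cells (adjusted p = 2.81e-04).

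Vegfc encodes the ligand of FLT4. It read 9.66, 9.58 and 9.78 in ES cells, 9.63, 9.62 and 9.59 in day 4 EBs, 9.27, 9.45 and 9.43 with DMSO, and 9.23, 9.25 and 9.31 with ATRA. Its order was the reverse of that of Vegfb: the treated groups lay below all untreated arrays and overlapped each other. ATRA-treated EBs were lower than untreated EBs by 0.35 on the log2 scale (SE 0.06, adjusted p = 0.0016), and lower than ES cells by 0.41 (adjusted p = 1.80e-04). DMSO against untreated EBs gave -0.23 ± 0.06 (adjusted p = 0.101, with 0.0254 among genes above the median level and 0.038 with an intensity trend, in a range of 0.0254 to 0.302). ATRA against DMSO gave -0.12 ± 0.06 (adjusted p = 0.249). EBs against ES cells gave -0.06 ± 0.06 (adjusted p = 0.54), called only with array weights (-0.15, adjusted p = 0.0453) in a range of 0.0453 to 0.965.

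The TIE receptor genes did not move as a pair. Tek, the angiopoietin receptor gene, read 7.67, 7.59 and 7.40 in ES cells, 7.46, 7.48 and 7.42 in day 4 EBs, 7.43, 7.55 and 7.47 with DMSO, and 7.23, 7.32 and 7.27 with ATRA. The 3 ATRA arrays were the lowest of all 12. Tek was -0.21 ± 0.07 in ATRA against DMSO and missed the threshold (adjusted p = 0.0518). It was called without ES 1 (0.0264) or ES 3 (0.0172), with array weights (0.0178), with the 2 groups fitted alone (0.0193) and with the replicate number as a block (0.0499), in a range of 0.0172 to 0.175 over all alternatives. Against ES cells the ATRA group was lower by 0.28 on the log2 scale (adjusted p = 0.00462). In EBs against ES cells, the difference of -0.10 ± 0.07 (adjusted p = 0.269) was called only without ES 3 (adjusted p = 0.0321, range 0.0321 to 0.798). Against untreated EBs, the ATRA group differed by -0.18 ± 0.07 (adjusted p = 0.0851) and was called without ES 1 (0.0467) or ES 3 (0.0334) and with the 2 groups fitted alone (0.0383), in a range of 0.0334 to 0.234.

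Tie1 encodes a partner of the angiopoietin receptor with no well-established ligand of its own. It read 7.83, 7.78 and 7.91 in ES cells, 7.75, 7.74 and 7.69 in day 4 EBs, 7.58, 7.67 and 7.67 with DMSO, and 7.801, 7.98 and 7.83 with ATRA. The ATRA arrays stood above both other EB groups and overlapped the ES arrays. In day 4 EBs the arrays lay below all ES arrays, with a difference of -0.11 ± 0.06 that was not called (adjusted p = 0.152) except with array weights (-0.18, adjusted p = 0.017), in a range of 0.017 to 0.402. Tie1 rose by 0.23 ± 0.06 with ATRA against DMSO (limma, adjusted p = 0.017). The call ended without DMSO 1 (difference 0.20, adjusted p = 0.0755) or ATRA 2 (0.18, adjusted p = 0.0793), in a range of adjusted p from 0.00783 to 0.0793. ATRA-treated EBs stood 0.145 ± 0.06 above untreated EBs, which was not called by limma (adjusted p = 0.107, range 0.0924 to 0.387). The DMSO group was lower than ES cells by 0.20 on the log2 scale (adjusted p = 0.0137). That call ended without ES 3 (0.0608) or DMSO 1 (0.06), and under quantile normalization (0.0596) and median centring (0.0862), in a range of 5.14e-04 to 0.0862. ATRA-treated EBs and ES cells differed by 0.03 ± 0.06 (95% interval -0.094 to 0.155).

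Of the adhesion genes, Cdh5, which encodes the cadherin of endothelial junctions, behaved much as Flt1 did. It read 8.91, 8.70 and 8.88 in ES cells, 9.74, 9.70 and 9.74 in day 4 EBs, 9.85, 9.80 and 9.81 with DMSO, and 9.49, 9.51 and 9.55 with ATRA. No 2 of the 4 groups overlapped. Cdh5 rose by 0.90 ± 0.05 in day 4 EBs against ES cells, or 1.86-fold (adjusted p = 8.02e-08). It fell by 0.30 on the log2 scale with ATRA against DMSO (SE 0.05, adjusted p = 0.00253), and this call held in every alternative that kept the threshold (adjusted p from 2.68e-04 to 0.0147). Against untreated EBs the ATRA group was lower by 0.21 (SE 0.05, adjusted p = 0.0172). That call ended without EB 3 (0.0575), ATRA 1 (0.0675) or ATRA 2 (0.0598) and under median centring (0.078), in a range of 0.00393 to 0.078. The ATRA group stayed 0.68 ± 0.05 above ES cells (adjusted p = 8.10e-07).

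Pecam1 had an order of its own. Its values were 10.51, 10.45 and 10.49 in ES cells, 10.16, 10.11 and 10.13 in day 4 EBs, 10.14, 10.16 and 10.24 with DMSO, and 10.90, 10.86 and 10.96 with ATRA. The ATRA arrays were the highest of all, the ES arrays came next, and the EB and DMSO arrays were lowest and overlapped. Pecam1 fell by 0.35 on the log2 scale in day 4 EBs (SE 0.05, adjusted p = 5.10e-05). With ATRA it rose by 0.73 ± 0.05 against DMSO, or 1.66-fold (adjusted p = 5.42e-07), and by 0.78 ± 0.05 against untreated EBs (adjusted p = 3.08e-07). The ATRA level was above that of ES cells as well, by 0.42 ± 0.05 (adjusted p = 1.02e-05). These calls held in every alternative that kept the threshold.

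Set against all genes, the counts were not out of the ordinary at the first step. In day 4 EBs against ES cells, 4 of the 9 genes were called, where 34.7% of all genes were: Flt1 and Cdh5 higher (background 17.8%), Flt4 and Pecam1 lower (16.9%). The median difference was -0.06 over the 9 genes and -4e-04 over all genes. With DMSO against untreated EBs, 0 of 9 were called by limma and 0.747% of all genes were. An unadjusted p under 0.05 in limma was reached by 2 of the 9, Vegfb and Vegfc, and by 3256 of all 19938 genes. In ATRA against DMSO, 4 of 9 were called against 13.3% of all genes, Pecam1 and Tie1 higher (6.26%) and Flt1 and Cdh5 lower (7.05%), with a median of -0.06 against 0.01. Without DMSO 1 or without ATRA 2 this count was 2, Cdh5 and Pecam1. ATRA against untreated EBs gave 5 of 9 against 18.4%, with Flt4, Vegfb and Pecam1 higher (7.79%) and Vegfc and Cdh5 lower (10.6%). It was 3 without EB 3, ATRA 1 or ATRA 2, the remaining calls being Vegfb, Vegfc and Pecam1. The last 2 comparisons share the ATRA arrays. Against ES cells, 7 of 9 were called with ATRA (36.6% of all genes) and 7 of 9 with DMSO (39.0%).

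**Figure D2:**
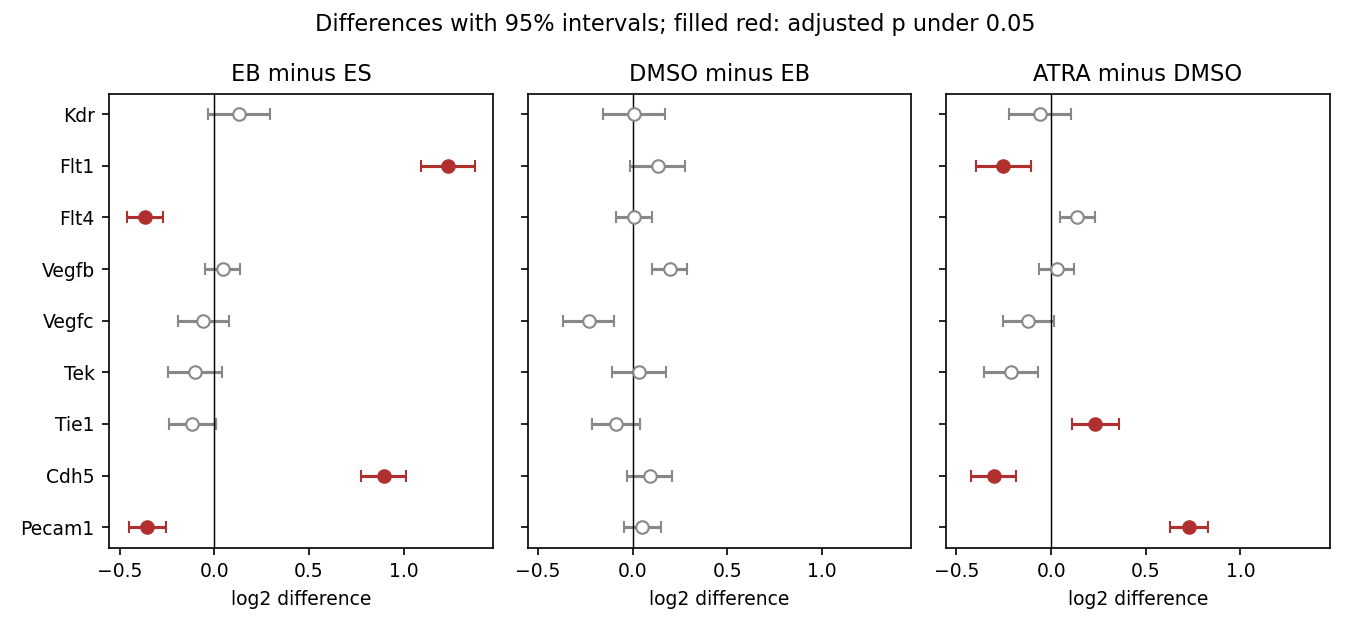
Log2 differences (horizontal axis) of the 9 genes in 3 comparisons, with 95% intervals from the fit (n = 3 per group). Filled red points have an adjusted p under 0.05: Flt1, Flt4, Cdh5 and Pecam1 for EBs against ES cells, none for DMSO against EBs, and Flt1, Tie1, Cdh5 and Pecam1 for ATRA against DMSO.

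The order of the 4 group levels was resolved at few steps. Of 27 pairs of neighbouring groups, 3 for each gene, 6 differed at the threshold. Pecam1 ran from ATRA through ES cells to DMSO and EBs, and its upper 2 steps differed while DMSO and EBs did not (adjusted p = 0.612). Cdh5 ran from DMSO and EBs, which did not differ (adjusted p = 0.439), through ATRA to ES cells, with both lower steps past the threshold. For Flt1 the DMSO, EB and ATRA groups each did not differ from the next, and only the step from ATRA down to ES cells passed. For Flt4 only the top step, from ES cells to ATRA, passed. No neighbours differed for Kdr, Vegfb, Vegfc, Tek or Tie1.

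The other genes of the VEGF and angiopoietin systems were read from fixed lists. For these and the later lists, the shares of all genes called were 34.7% for EBs against ES cells and 13.3% for ATRA against DMSO. They were 0.747% for DMSO against EBs and 18.4% for ATRA against EBs. Of 5 further VEGF ligands and co-receptors, 2 were higher and 2 lower in day 4 EBs than in ES cells. Vegfa, the principal VEGF ligand gene, rose by 0.53 ± 0.05 (adjusted p = 2.15e-06) and the co-receptor gene Nrp2 by 0.15 ± 0.05 (adjusted p = 0.0379, called no longer without any 1 ES or ATRA array, EB 1 or EB 3, with 0.145 without EB 1 the highest), while the co-receptor gene Nrp1 fell by 1.83 on the log2 scale (SE 0.07, adjusted p = 2.02e-09) and the FLT4 ligand gene Vegfd by 0.56 (SE 0.12). Vegfa arrays ran from 10.88 to 10.95 in ES cells, 11.37 to 11.49 in EBs, 11.52 to 11.63 with DMSO and 11.70 to 11.72 with ATRA, so all 4 groups were apart. With ATRA against DMSO, 0 of the 5 were called, and Vegfa differed by 0.13 ± 0.05 (adjusted p = 0.108). Against untreated EBs, the Vegfa difference of 0.27 ± 0.05 was called (adjusted p = 0.00182). Of 4 angiopoietin ligands and TIE partners, Angpt1, a TEK ligand gene, fell in EBs by 0.48 (SE 0.09, adjusted p = 0.00124) and the other 3 were not called. With ATRA none of the 4 was called, Angpt4 at 0.15 ± 0.07 and Ptprb, a phosphatase of endothelial receptors, at 0.13 ± 0.07.

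Of 22 measured genes that carry the signal inside the cell, 8 were higher and 8 lower in day 4 EBs, against 34.7% of all genes called. The list median was 0.04. The protein kinase C genes split: Prkcb rose by 0.84 ± 0.06 and Prkca fell by 0.88 on the log2 scale (SE 0.08). The kinase gene Akt1 (-0.45 ± 0.04) and the focal adhesion gene Pxn (-0.42 ± 0.05) fell. With DMSO against EBs, Akt1 alone was called (0.25 ± 0.04, adjusted p = 0.0311), and it kept the call only without ES 1, ES 2, ES 3 or DMSO 2 (adjusted p = 0.138 without DMSO 1, the highest). With ATRA against DMSO, 0 were higher and 2 lower: the adaptor gene Shb (-0.35 ± 0.05, adjusted p = 3.98e-04) and the calcineurin regulator gene Rcan1 (-0.17 ± 0.05, adjusted p = 0.0471). The Rcan1 call was kept only without ES 1, ES 2 or DMSO 1 (adjusted p = 0.172 without ATRA 3, the highest).

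Other endothelial surface genes were read as well, with no detection calls to say which were absent. Of 24 measured, 3 were higher and 6 lower in day 4 EBs than in ES cells, against 34.7% of all genes called. The list median was -0.04. Cd34, a sialomucin gene of progenitors and endothelium, fell by 2.12 (SE 0.06, adjusted p = 1.65e-10), S1pr1, a lipid receptor gene, by 0.997 (SE 0.08) and Calcrl by 0.84 (SE 0.10). Esam, which encodes an endothelial adhesion molecule, rose by 0.68 ± 0.09. Mcam and Ramp2 stood higher too, with means of 10.01 and 8.49 in ES cells and 10.36 and 8.83 in day 4 EBs. In ATRA against DMSO, 5 were higher and 5 lower, against 13.3% of all genes called. Robo4 rose by 0.44 ± 0.08, while Ecscr (-0.50 ± 0.06), Mcam (-0.36 ± 0.05) and Cd34 (-0.35 ± 0.06) fell. The count higher was 3 without ES 3, DMSO 1 or DMSO 2, 2 without DMSO 3, ATRA 1 or ATRA 2, and 1 without ATRA 3, and the count lower was 3 without ATRA 3. Jam3, Emcn, Icam2, Vwf, Thbd, Clec14a, Stab1, Stab2 and Lyve1, 9 of the 24, were called in none of the 6 pairwise comparisons. The mean log2 value of the list per array ran from 8.27 to 8.37 in ES cells, 8.15 to 8.24 in EBs, 8.10 to 8.13 with DMSO and 8.10 to 8.13 with ATRA. The mean of the list was thus not higher in any EB group than in ES cells, and it includes the large falls of Cd34, S1pr1 and Calcrl. Of the 24 genes, 3 were called higher in day 4 EBs, as Flt1 and Cdh5 were. Whether the aggregates held endothelium was not tested.

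Of 18 blood and endothelial transcription factor genes, 5 rose and 5 fell in day 4 EBs, against 34.7% of all genes called. Gata2 (-0.92 ± 0.05), Fli1 (-0.94 ± 0.06) and Foxc2 (-0.82 ± 0.08) fell and Hhex, also a gene of anterior endoderm, rose by 0.92 ± 0.09. With ATRA against DMSO only Ets1 was called (-0.26 ± 0.06, adjusted p = 0.0117), and no longer without DMSO 3 (0.0558) or ATRA 2 (0.0622). Without ES 2, 2 of the 18 were higher and 3 lower, without ES 3 these counts were 1 and 2, and without DMSO 1 they were 1 and 1. Lyl1, Erg, Gata1, Runx1 and Sox18 were called in none of the 6 comparisons. Among 9 Notch and ephrin genes of arteries and veins, 3 rose and 2 fell in EBs. Hey2 (0.86 ± 0.09) and Notch4 (0.48 ± 0.07) rose, and Nr2f2, a vein factor gene, fell by 1.06 (SE 0.07). With ATRA against DMSO, 1 was higher and 4 lower, with Notch4 at 0.50 ± 0.07 and the ligand genes Efnb2 and Jag1 at -0.63 ± 0.06 and -0.56 ± 0.04. Hey2 fell as well (-0.42 ± 0.09, adjusted p = 0.00782).

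**Figure D3:**
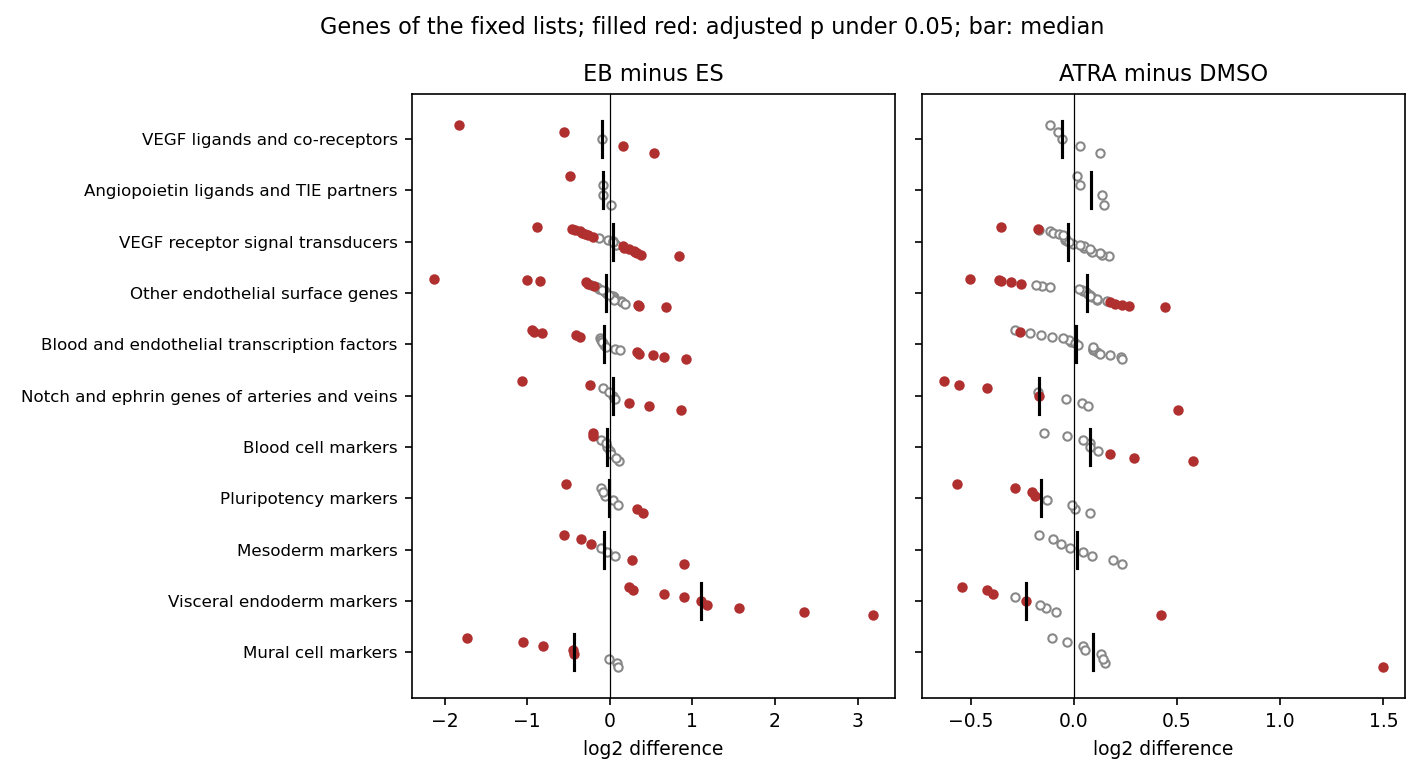
Log2 differences (horizontal axes, scaled separately) of the genes of 11 fixed lists for day 4 EBs against ES cells and for ATRA against DMSO. Filled red points have an adjusted p under 0.05 and bars mark list medians. The visceral endoderm list stood apart at the first step with a median of 1.11, and Pdgfrb, at 1.497, was the only mural cell marker called with ATRA. Sox17 belongs to 2 lists.

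Markers of other cell types moved beside these genes. All 9 visceral endoderm markers rose in day 4 EBs, as Flt1 and Cdh5 did, with Cubn, an endocytic receptor gene, at 2.35 ± 0.07, and Ttr, a carrier protein gene, at 3.19 ± 0.12. The count was 8 without ES 1, ES 3, EB 1, EB 2, DMSO 3, ATRA 1 or ATRA 2. In each of these the limma call of Afp ended (adjusted p = 0.144 without EB 2, the highest). The mean log2 value of these 9 ran from 8.75 to 8.82 per array in ES cells, 9.96 to 10.16 in EBs, 10.37 to 10.58 with DMSO and 10.21 to 10.38 with ATRA. In ATRA against DMSO, 4 of the 9 fell and 1 rose, with Hnf4a at -0.42 ± 0.07, Ttr at -0.54 ± 0.12 and Gata6 at 0.42 ± 0.05. The count of 4 was 2 without DMSO 3 or ATRA 2 and 1 without DMSO 1 or ATRA 3, and the Ttr call ended without DMSO 1 (adjusted p = 0.054) or ATRA 3 (0.0547). Against untreated EBs, by contrast, 4 of the 9 were higher with ATRA and 0 lower, beside 18.4% of all genes called. Gata6 (0.67 ± 0.05) and Apoa1 (0.65 ± 0.10) led, while Cdh5 was lower there (-0.21 ± 0.05) and Flt1 was not called (-0.12 ± 0.07). The count higher was 2 without EB 1, EB 3, ATRA 1 or ATRA 2. With DMSO against EBs, 4 of the 9 markers rose, led by Apoa1 at 1.04 ± 0.10 (adjusted p = 0.00662). This count was 0 without EB 1 or DMSO 1 (Apoa1 adjusted p = 0.0548 and 0.0668; no gene of the array was then called by limma, with 3080 and 2340 at an unadjusted p under 0.05), 1 without DMSO 3 and 2 without EB 3. Their part in the levels of Flt1 and Cdh5 was not tested. Of 8 mural cell markers, 5 fell and 0 rose in EBs, with Acta2 at -1.73 ± 0.11, and in ATRA against DMSO only Pdgfrb was called (1.497 ± 0.043), with 2 called without DMSO 2.

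Beside Pecam1, the pluripotency list was 0 higher and 4 lower of 8 in ATRA against DMSO, with Zfp42 at -0.57 ± 0.06 and its mean per array between 12.52 and 12.54, against 12.68 to 12.70 with DMSO. The count of 4 was 2 without DMSO 3 or ATRA 2 and 1 without DMSO 1, ATRA 1 or ATRA 3. In the blood list, 3 of 9 rose and 0 fell with ATRA against DMSO, beside 13.3% of all genes called. These were Kit (0.58 ± 0.06), a receptor gene that ES and germ cells also express, Spi1 (0.29 ± 0.06) and Itga2b (0.18 ± 0.05). The Itga2b call (adjusted p = 0.0446) was kept only without ES 1, ES 2, EB 1 or EB 3 (0.171 without ATRA 3, the highest). Ptprc, Epor, Hbb-bh1, Hba-x and Klf1 were called in no comparison. Per array the mean of this list ran from 7.36 to 7.37 with DMSO and from 7.44 to 7.53 with ATRA. It ran from 7.35 to 7.54 in ES cells and from 7.36 to 7.47 in untreated EBs, and both ranges overlapped that of ATRA. In ATRA against untreated EBs only Kit was called (0.63 ± 0.06), beside 18.4% of all genes, with 2 higher without EB 2. Of 8 mesoderm markers, 0 were called in ATRA against DMSO by limma, and 1 without ES 1 or ES 2. In EBs Eomes (0.90 ± 0.07) and Tbx6 (0.27 ± 0.05) rose and 3 fell, Pdgfra (-0.55 ± 0.06) among them, and Mesp1, which marks early cardiovascular mesoderm, was called in no comparison. The part of these cell types in the level of Pecam1 was not tested.

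Among themselves, the 9 genes fell into patterns over the 12 arrays, given here as description, since arrays of a group share their treatment. Flt1 and Cdh5 were the most alike (Pearson r = 0.967, n = 12 arrays). Flt4 ran against both, at -0.938 with Flt1 and -0.952 with Cdh5, and Vegfb against Vegfc, at -0.898. Tie1 and Pecam1 correlated at 0.732. The 3 genes whose group means spanned at least 0.5 log2 units were then compared with the 2714 genes that passed the same limit and the naming rule. Closest to Flt1 were Egln3, a prolyl hydroxylase gene (r = 0.996), Atp8a1 (0.995), Trpm6, a magnesium channel gene (0.994), and Dab2, an endocytic adaptor gene (0.993). Closest to Cdh5 were Ephx2 (0.997), the basement membrane gene Nid2 (0.992), Pla2g7 (0.992) and the spectrin gene Sptb (0.992). Closest to Pecam1 were the phosphatase gene Pptc7 (0.995), the homeobox gene Hoxb4 (0.993), Prtg (0.992) and the ERK phosphatase gene Dusp9 (0.991). Hoxb4 stood at 7.89 ± 0.03 (SD, n = 3) in ES cells, 7.28 ± 0.07 in EBs, 7.37 ± 0.01 with DMSO and 8.64 ± 0.05 with ATRA. Its order of ATRA above ES cells above the rest was that of Pecam1, a likeness that its choice by correlation with Pecam1 made likely.

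**Figure D4:**
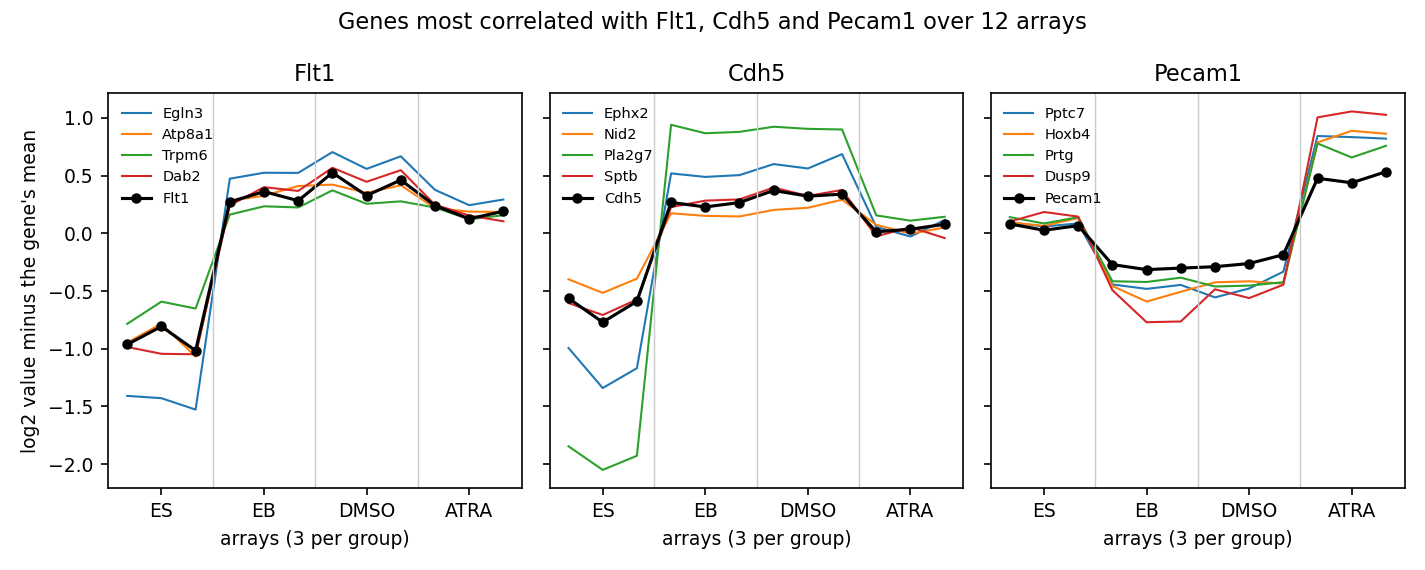
Log2 values minus each gene's own mean (vertical axis) on the 12 arrays in group order, for Flt1, Cdh5 and Pecam1 (black) and the 4 genes most correlated with each (colours). The Pecam1 panel is lowest in the EB and DMSO arrays and highest in the ATRA arrays, where the 4 companions, Dusp9 most, exceed the excursion of Pecam1.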

How the data were processed

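Total RNA of 12 samples was labelled by the Affymetrix protocol with the Ambion WT Expression kit, per the labels' protocols. The authors deposited 1 table of log2 values for 35556 probe sets, made from the scanned arrays. Their normalization is not given in the sources used here, and the log2 scale is inferred from values of 2.30 to 14.7. Nearly equal array medians hide changes of total RNA, and high values can be compressed. Probe sets were named by the platform annotation (21789 with 1 symbol, 1621 with several, 12146 unlisted), and each gene was its single-symbol probe set of highest mean, with no filter.

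All genes were fitted with the limma package (version 3.58.1, under R 4.3.3), as 4 group means with 6 pairwise contrasts and moderated variances (residual degrees of freedom 8, prior 3.93). Every test was two-sided, and p-values were adjusted over all 19938 genes by the Benjamini-Hochberg method. The code was checked on simulated data. The members and lists were chosen with earlier results of these data known. Named genes were the 9 members, up to 4 called genes of each list per comparison by adjusted p (otherwise up to 2 with the largest difference), and the 4 genes most correlated with each member spanning 0.5. The correlated genes exclude microRNAs, predicted genes and chemosensory receptors (olfactory, vomeronasal), and not every gene the rule allows is printed. List genes called in no comparison, and the ES and day 4 EB means of Mcam and Ramp2, are given outside the rule, chosen after their values were seen. List symbols not on the array were updated through RefSeq synonyms, and unmatched ones were left out. Alternatives were other scalings, a filter, probe set rules, variance priors, array weights, the 2 groups alone, a replicate block, left-out arrays and stricter thresholds. ES 2 and EB 2, the arrays of narrowest spread, were left out together as an alternative chosen after the data were seen.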

Additional observations from a re-analysis of the deposited data

How the results depend on the processing

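No called difference of the 9 genes changed sign in any alternative. Values of uncalled differences did: with array weights Tek went to 0.021 (EBs against ES cells) and 0.066 (DMSO against ES cells) and Tie1 to -0.031 (ATRA against ES cells), and Kdr went to 0.012 (ATRA against EBs) without ES 2 and EB 2. With single arrays left out, Kdr ran from -0.062 to 0.0693 and Flt4 from -0.0045 to 0.0247 (DMSO against EBs), Kdr from -0.119 to 0.012 (ATRA against EBs) and Tie1 from -0.027 to 0.0649 (ATRA against ES cells). Of the 9 genes, 4 were called for EBs against ES cells, 2 with a 1.5-fold limit and 4 to 5 with single arrays left out. For DMSO against EBs, 0 became 2 with the filter at the median level, 2 with an intensity trend and 1 with array weights. For ATRA against DMSO, 4 became 2 at an adjusted p of 0.01, 1 with the fold limit and 2 to 6 with arrays left out. For ATRA against EBs, 5 became 3 with median centring, 3 at 0.01, 1 with the fold limit and 3 to 6 with arrays left out. Of neighbouring groups, 6 steps passed, 10 with array weights, 2 with the fold limit and 5 to 8 with arrays left out. The filter removes 4 of the 9 genes by construction; the other causes were not tested. Same-numbered samples did not pair (correlations of deviations from -0.126 to 0.506; 4 of 12 samples correlated best with their own number). The replicate block gave 4, 0, 5 and 5 calls in the 4 comparisons. Over all genes, the 149 calls for DMSO against EBs became 253 after quantile normalization, 761 with the filter, 626 with the trend, 25 with the 2 groups alone, 62 with the replicate block, 27 without ES 2 and EB 2, 5 at 0.01 and 18 with the fold limit. They fell to 0 without EB 1 or DMSO 1 (3080 and 2340 at an unadjusted p under 0.05 in limma), and reached at most 237 with 1 array left out. The 2655 for ATRA against DMSO became 4311 with array weights, 1605 at 0.01 and 342 with the fold limit. At the same limits the 3673 for ATRA against EBs became 2126 and 372, and with the fold limit the 6925 for EBs against ES cells became 1433. The number of arrays limits the precision, and the deposited values give no signal over background.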
